A study of Mus musculus with 14 samples.

Results

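The 35 genes described here encode the protein folding and stress machinery of the endoplasmic reticulum (ER) and were chosen by symbol from that pathway. They were followed in mouse plantaris muscle made to grow by synergist ablation, the surgical removal of the muscles that share its work. A member was taken as measured where the array annotation gave a probe set that symbol alone, and where several probe sets did, the brightest was used. All 35 members were found among the 19938 genes measured this way, and none lay in the dimmest of 3 equal classes of genes by brightness. RNA came from male C57BL/6J mice aged 5 months and was hybridised to 14 Affymetrix Mouse Gene 1.0 ST arrays. Muscles at day 0 carried no ablation label, and the operated muscles were taken at days 1, 3, 5, 7, 10 and 14. Each day had 2 arrays, 1 from a pool of right muscles and 1 from a pool of left muscles, with 6 animals in a pool. No sham-operated group is named, and therefore overload cannot be told apart from the operation itself or from elapsed time. Whether 1 set of animals gave both pools of a day is not stated either, and the p-values then reflect variation among pools, which may be technical.

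Proteins destined for secretion or for membranes enter the ER through the Sec61 channel. They are folded there by chaperones, joined by disulfide bonds and, where folding fails, sent back to the cytosol for degradation. When unfolded proteins accumulate, the unfolded protein response is switched on by 3 sensors, IRE1, ATF6 and PERK. IRE1 splices the Xbp1 mRNA, ATF6 is cut to release a transcription factor, and PERK slows translation and favours ATF4. Muscle fibres hold a specialised ER, the sarcoplasmic reticulum, which stores calcium, while fibroblasts and immune cells in muscle use the ER for secretion. In a whole muscle, fewer cells of a type and less RNA per cell cannot be told apart.

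The response is known to act through short promoter sequences, and these were looked for first, to show which members carry their letters. The ER stress response element was searched on both strands as CCAAT, then 9 bases of any kind, then CCACG, from 250 bases before to 50 bases after each annotated start in the RefSeq promoters of build GRCm38.p6. The table held 33 promoters, of 29 of the 35 members. The element was found in 9 of the 33 member promoters (27.3%), against 39 of all 32851 promoters (0.119%). Counted by gene, it was found in 9 of 29 members (31.0%), against 37 of all 27025 genes (0.137%). The element was defined on genes of this kind, so its presence here is not independent evidence. The matches are shown because they mark which members carry the same letters, in the orientation of the element, with its fixed letters in capitals and 10 flanking bases on each side.
Hspa5, chr2:34772015-34772053, plus strand: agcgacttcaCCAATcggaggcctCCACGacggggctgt
Hsp90b1, chr10:86705628-86705666, minus strand: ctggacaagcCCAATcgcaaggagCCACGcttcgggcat
Hsp90b1, chr10:86705523-86705561, plus strand: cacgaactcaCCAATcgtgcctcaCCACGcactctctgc
Dnajc3, chr14:118937817-118937855, plus strand: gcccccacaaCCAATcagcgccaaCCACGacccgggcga
Creld2, chr15:88819510-88819548, minus strand: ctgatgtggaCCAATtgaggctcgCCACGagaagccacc
Calr, chr8:84847065-84847103, plus strand: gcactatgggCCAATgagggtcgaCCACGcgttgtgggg
Canx, chr11:50325790-50325828, minus strand: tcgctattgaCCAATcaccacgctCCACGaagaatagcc
Pdia6, chr12:17266481-17266519, plus strand: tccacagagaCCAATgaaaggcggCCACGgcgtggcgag
Syvn1, chr19:6046522-6046560, plus strand: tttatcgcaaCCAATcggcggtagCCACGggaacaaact
Derl3, chr10:75893232-75893270, minus strand: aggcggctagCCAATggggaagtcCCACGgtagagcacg

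A second form of the element, searched on both strands as ATTGG, then 1 base of any kind, then CCACG, lay in 2 of the 33 member promoters (6.06%), those of Herpud1 and Dnajb11, against 0.0365% of all promoters. The Herpud1 match is shown because this gene moved differently from most of the others, as described below, with the fixed letters again in capitals.
Herpud1, chr8:94386367-94386397, plus strand: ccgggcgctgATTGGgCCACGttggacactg

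**Figure D1:**
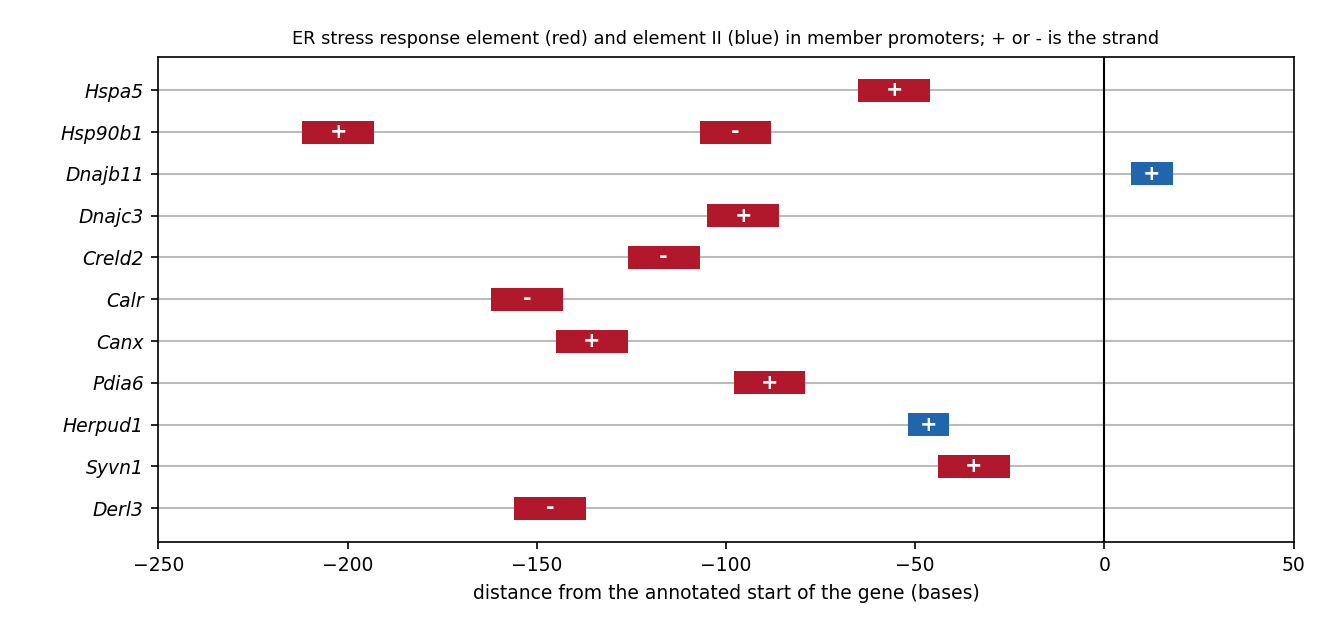
Position of the ER stress response element (red) and its second form (blue) in member promoters, in bases from the annotated start, with + or - for the strand relative to the gene. Every red match lies before the start, between 212 and 44 bases upstream at its first base, and the Dnajb11 match lies after it.

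Neither the XBP1 site TGACGTGG nor the ATF4 composite site TGATGNAAT was found in these letters in any of the 33 member promoters, against 0.676% and 0.965% of all promoters. No match says only that these letters are not in this window, and a match is a description, not a bound site or a cause. At day 1 the 9 genes with the element had a median log2 difference from day 0 of 1.11 (range 0.68 to 2.03). The 20 members with a promoter but without this element had a median of 1.02 (range 0.15 to 3.84), so the ranges overlapped. Herpud1 and Dnajb11, which carry the second form, are among these 20. At day 14 the same medians were 0.41 and 0.26. These values were not tested, since the members are not a sample of promoters. Manf, Hyou1, Atf6, Sec61a1, Derl1 and Hspa13 were not matched to a promoter entry.

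Nearly all of the ER genes rose within a day of ablation, and 21 of the 35 were still called higher at day 14. Of these, Pdia5 and Ppib were higher by more than at day 1, and the rest by less. Against day 0, 33 of 35 were called higher at day 1 and none lower, at an adjusted p below 0.05 in limma with Benjamini-Hochberg adjustment over all genes. At an unadjusted p below 0.05 the same limma fit also had 33 higher and 0 lower. Over all genes 20.3% were called higher and 34.7% lower at that day. The median log2 difference of the members was 1.05, against -0.14 over all genes. A log2 difference of 1 is a doubling of intensity, and 19 members were called higher by over 2-fold, against 6.12% of all genes. Only Fkbp11 (0.15 ± 0.12, SE, n = 2 pools a day) and Sec61b (0.20 ± 0.09) were not called at day 1.

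At day 3, 33 members were called higher and 1 lower, where 24.2% of all genes were higher and 23.4% lower. At day 5 the counts were 32 and 1, against 27.0% and 38.1% of all genes. At day 7 they were 32 and 3, against 28.5% and 37.8%. At day 10, 26 were higher and 2 lower, against 23.6% and 27.5%. At day 14, 21 were higher and 2 lower, against 21.4% and 20.7%, and 17 were higher without the left pool of day 14. The member median fell from 1.05 and 1.04 at days 1 and 3 to 0.78, 0.75, 0.43 and 0.30 at days 5, 7, 10 and 14. The all-gene median stayed between -0.16 and -0.07. Members over 2-fold higher numbered 18, 14, 12, 8 and 5 from day 3 on, against 7.52%, 8.64%, 9.68%, 6.69% and 4.90% of all genes. The all-gene shares called higher and lower on each day are also the background for the counts of each role group below.

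**Figure D2:**
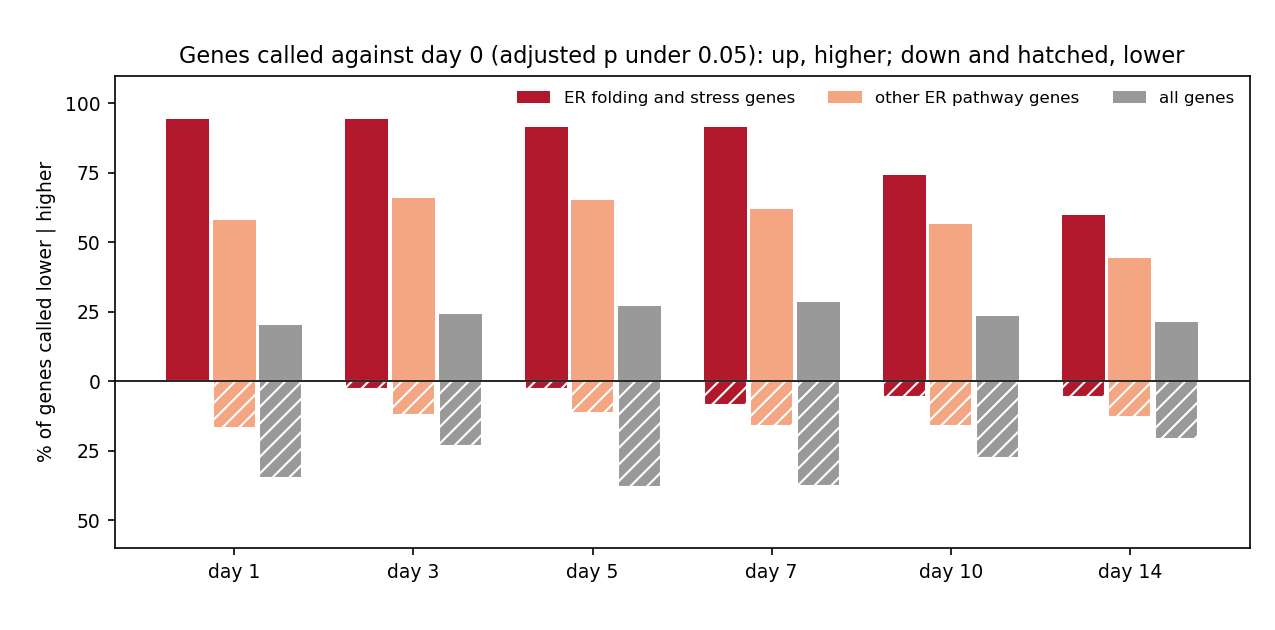
Percent of genes called higher (bars up) or lower (hatched bars down) than day 0 by limma, on each day, for the 35 ER genes, 124 other ER pathway genes and all 19938 genes. The ER genes are called higher in 94.3% at day 1 and 60.0% at day 14.

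In no called member result did the right and left pools move in opposite directions, and no called member had a pool that overlapped the day 0 pools. Only called results were checked, and a call already favours such agreement, so this adds little support to the calls. The same shares over all called genes were not counted, so this is not a trait of the members. Some results not called also lay clear of day 0, while others, such as Atf6 at day 10, did not. Sec61b at day 1 read 9.16 and 9.24, against 9.11 and 8.88 at day 0. Dnajb9 at day 5 read 10.82 and 10.50, against 10.97 and 10.84 at day 0. By difference from day 0, the member lowest at the last time points was Herpud1, and the highest at day 1 was Ero1a. The comparisons share the day 0 pools, so they are not independent of each other.

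**Figure D3:**
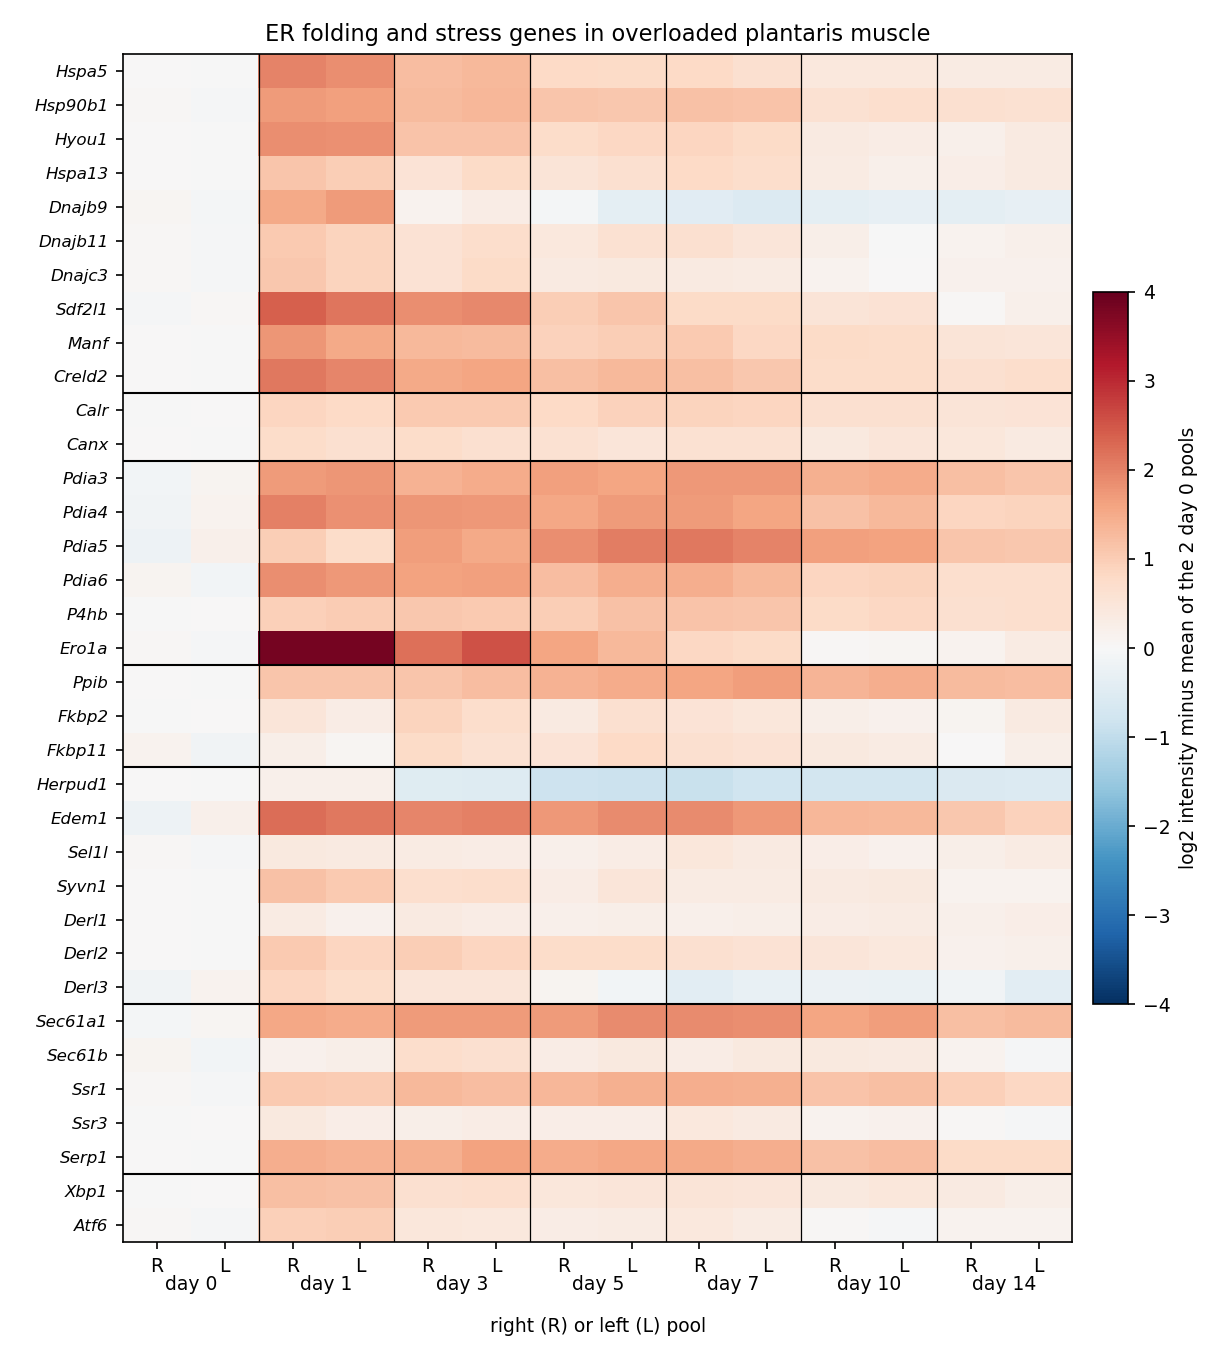
Log2 intensity of each of the 35 genes in each of the 14 pools minus the mean of the 2 day 0 pools (red higher, blue lower), with genes grouped by role and lines between groups. Red fills most of the day 1 columns and pales toward day 14, while Dnajb9, Herpud1 and Derl3 turn blue.

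Both transcription factors among the members, which switch on many of the other members, rose at day 1. Xbp1 is the target of IRE1, and the value here does not separate its spliced from its unspliced form. Xbp1 read 11.57 and 11.59 log2 intensity in the right and left pools at day 0, 12.77 and 12.75 at day 1, 12.22 and 12.26 at day 3, 12.03 and 12.07 at day 5, 12.10 and 12.06 at day 7, 11.97 and 12.04 at day 10, and 11.93 and 11.82 at day 14. Both day 1 pools lay above every other pool. Its difference from day 0 was 1.18 ± 0.07 (SE, n = 2 pools a day, limma adjusted p = 9.66e-08) at day 1 and 0.30 ± 0.07 (adjusted p = 0.00373) at day 14. Atf6, the membrane-held sensor, read 10.59 and 10.47 at day 0, 11.48 and 11.51 at day 1, 10.99 and 10.95 at day 3, 10.83 and 10.85 at day 5, 10.96 and 10.86 at day 7, 10.58 and 10.49 at day 10, and 10.66 and 10.67 at day 14. The day 10 pools lay among the day 0 pools. Atf6 was called higher at days 1 to 7 (0.96, 0.43, 0.31 and 0.37, all ± 0.07) but not at day 10 (0.00) or day 14 (0.13).

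The Hsp70 and Hsp90 chaperones and their partners hold unfolded chains and all reached their highest mean at day 1. All 10 were called higher then, with a median of 1.65, and 9 at days 3, 5 and 7, 7 at day 10 and 6 at day 14. Hspa5, also called BiP, the chaperone that binds unfolded chains and holds the sensors inactive, read 11.79 and 11.76 at day 0, 13.74 and 13.62 at day 1, 13.02 and 13.07 at day 3, 12.58 and 12.53 at day 5, 12.57 and 12.42 at day 7, 12.19 and 12.19 at day 10, and 12.11 and 12.09 at day 14. All 12 operated pools were above both day 0 pools. The difference was 1.91 ± 0.07 at day 1 (3.76-fold, limma adjusted p = 5.85e-09), 1.27 at day 3 and 0.33 at day 14 (adjusted p = 0.00422).

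Sdf2l1, a component of the Hspa5 chaperone complex, rose the most of this group at days 1 and 3. It read 8.97 and 9.07 at day 0, 11.42 and 11.16 at day 1, 10.87 and 10.95 at day 3, 10.00 and 10.13 at day 5, 9.79 and 9.78 at day 7, 9.54 and 9.59 at day 10, and 9.06 and 9.22 at day 14. The right pool of day 14 lay between the day 0 pools. The difference was 2.27 ± 0.10 at day 1 (4.82-fold) and 0.12 (adjusted p = 0.35, limma) at day 14, not called. Creld2, a secreted ER stress protein with the element, read 9.53 and 9.48 at day 0, 11.62 and 11.47 at day 1, 11.01 and 11.09 at day 3, 10.70 and 10.79 at day 5, 10.70 and 10.58 at day 7, 10.26 and 10.25 at day 10, and 10.15 and 10.20 at day 14. Its pools stayed above day 0 throughout, at 2.03 on day 1 and 0.67 on day 14. Manf, a secreted cofactor of Hspa5, read 8.56 and 8.52 at day 0, 10.29 and 10.05 at day 1, 9.84 and 9.79 at day 3, 9.47 and 9.52 at day 5, 9.59 and 9.35 at day 7, 9.29 and 9.29 at day 10, and 9.07 and 9.03 at day 14. At day 10 Manf and Creld2 were the highest of the group, at 0.75 each.

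Hsp90b1, the ER form of Hsp90 also called GRP94, read 11.27 and 11.20 at day 0, 12.95 and 12.87 at day 1, 12.50 and 12.56 at day 3, 12.36 and 12.33 at day 5, 12.42 and 12.37 at day 7, 11.84 and 11.91 at day 10, and 11.87 and 11.85 at day 14. Its rise of 1.67 at day 1 had fallen to 1.11 at day 5 and stood at 1.16 at day 7, the largest of the group at that day. Dnajb9, a cochaperone that hands Hspa5 to IRE1, did not follow the others. It read 10.97 and 10.84 at day 0, 12.42 and 12.60 at day 1, 11.04 and 11.21 at day 3, 10.82 and 10.50 at day 5, 10.45 and 10.35 at day 7, 10.50 and 10.56 at day 10, and 10.51 and 10.57 at day 14. It was 1.61 ± 0.11 higher at day 1 and called lower from day 7 on, where both pools lay below day 0. Both pools of day 5 already lay below those of day 0, at -0.25 (limma adjusted p = 0.0697), not called. The difference was -0.50 at day 7 (adjusted p = 0.0022, limma), -0.37 at day 10 (adjusted p = 0.0156) and -0.36 at day 14 (adjusted p = 0.0215). The calls at days 10 and 14 ended without the right pool of day 0, at -0.31 (adjusted p = 0.0899) and -0.30 (adjusted p = 0.114). At day 10 the call also ended without that day's right pool (-0.34, adjusted p = 0.0853), and at day 14 without that day's right pool (-0.33, adjusted p = 0.0914) or its left pool (-0.39, adjusted p = 0.061).

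The other 4 members of this group were called higher at days 1 to 7. Hyou1, an Hsp70 relative, rose by 1.84 at day 1 and was 0.30 higher at day 14. Hspa13 rose by 1.05 at day 1. Dnajb11 and Dnajc3, cochaperones of Hspa5, were not called at days 10 or 14, and their day 1 folds were 1.95 and 1.98. Hyou1 at day 14 was not called without the left pool of that day (0.22, adjusted p = 0.083 in limma). Hspa13 at day 10 (0.27) was not called without any 1 of the 4 pools compared, with values from 0.22 to 0.31. At day 14 (0.31) its call ended without either day 0 pool (0.31, adjusted p = 0.0601 without the right and adjusted p = 0.0665 without the left) or without that day's left pool (0.27, adjusted p = 0.108).

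Both lectin chaperones, which bind sugar-tagged glycoproteins, were called higher on all 6 days. Calr, or calreticulin, a calcium-binding lectin, read 11.81 in both pools at day 0, 12.67 and 12.62 at day 1, 12.85 and 12.86 at day 3, 12.59 and 12.72 at day 5, 12.70 and 12.68 at day 7, 12.44 and 12.46 at day 10, and 12.32 and 12.35 at day 14. Every operated pool was above both day 0 pools. Calr peaked at day 3 at 1.04 and was 0.53 higher at day 14. Canx, or calnexin, its membrane-bound relative, was 0.41 to 0.69 higher over the 6 days.

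The disulfide isomerases and oxidase, which form and rearrange disulfide bonds, rose on the first days, with peaks on different days. All 6 were called higher on days 1 to 7, with group medians of 1.77, 1.61, 1.52 and 1.52, and 5 of 6 at days 10 and 14. Ero1a, the oxidase that supplies the isomerases with oxidising power, had the largest rise of all 35 at day 1. Ero1a read 9.49 and 9.38 at day 0, 13.27 and 13.28 at day 1, 11.65 and 11.97 at day 3, 11.01 and 10.73 at day 5, 10.26 and 10.19 at day 7, 9.49 and 9.52 at day 10, and 9.57 and 9.75 at day 14. The day 1 pools lay above all others. The difference was 3.84 ± 0.12 at day 1 (14.3-fold, adjusted p = 1.36e-09 in limma). It then declined to 2.37, 1.43 and 0.79 at days 3, 5 and 7, and it was not called at day 10 (0.07) or day 14 (0.23).

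Pdia5, a disulfide isomerase, rose later. It read 8.58 and 9.002 at day 0, 9.77 and 9.51 at day 1, 10.46 and 10.30 at day 3, 10.64 and 10.84 at day 5, 10.89 and 10.76 at day 7, 10.43 and 10.40 at day 10, and 9.90 and 9.88 at day 14. Both day 7 pools were above those of day 1, and the day 0 pools lay 0.43 apart. The difference was 0.85 ± 0.14 at day 1 and 2.04 at day 7 (4.1-fold, limma adjusted p = 2.42e-07), the largest of the 35 at that day. Pdia3, or ERp57, the isomerase that works with Calr and Canx, read 10.59 and 10.79 at day 0, 12.39 and 12.46 at day 1, 12.09 and 12.17 at day 3, 12.34 and 12.26 at day 5, 12.43 and 12.43 at day 7, 12.11 and 12.19 at day 10, and 11.88 and 11.81 at day 14. Its rise of 1.74 was the same at days 1 and 7 to 2 decimals, and 1.15 was left at day 14, the largest of the group then. Pdia4, Pdia6 and P4hb, further isomerases of which P4hb is also a subunit of collagen prolyl hydroxylase, were called higher on all 6 days. Pdia4 and Pdia6 were highest at day 1, at 1.93 and 1.80, and P4hb at day 7, at 1.13. Pdia4 had 2 probe sets, and the dimmer one, not used here, kept less of its rise. It read 6.78 and 7.04 at day 0, 8.60 and 8.38 at day 1, 7.51 and 7.31 at day 7, and 7.19 and 7.04 at day 14.

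The prolyl isomerases turn proline bonds during folding. Ppib, or cyclophilin B, known for its part in collagen folding, read 11.59 and 11.57 at day 0, 12.68 and 12.69 at day 1, 12.70 and 12.82 at day 3, 12.97 and 13.06 at day 5, 13.15 and 13.27 at day 7, 12.96 and 13.03 at day 10, and 12.84 and 12.82 at day 14. All operated pools were above day 0 and day 7 was highest. The difference was 1.10 at day 1, 1.63 at day 7 (3.09-fold, adjusted p = 1.4e-08 in limma) and 1.25 at day 14, the largest of the 35 at the last time point. Fkbp2 and Fkbp11, isomerases of the FK506-binding family, were highest at day 3, at 0.80 and 0.69, and neither was called at day 14. Fkbp2 at day 1 (0.38) was not called without the right pool of day 0 (0.37, adjusted p = 0.0601) or without that of day 1 (0.29, adjusted p = 0.103). Fkbp11 at day 10 (0.36) was not called without the left pool of day 0 (0.24, adjusted p = 0.186) or without the right (0.34, adjusted p = 0.109) or left (0.38, adjusted p = 0.07) pool of day 10.

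Of the 5 members that bring proteins into the ER, 4 were called higher at day 1, all 5 at days 3 to 7, 4 at day 10 and 3 at day 14. Sec61a1, the channel's main subunit, read 10.76 and 10.89 at day 0, 12.37 and 12.31 at day 1, 12.53 in both pools at day 3, 12.53 and 12.72 at day 5, 12.70 and 12.69 at day 7, 12.42 and 12.51 at day 10, and 12.05 and 12.09 at day 14. The values built up to day 7, at 1.87 (3.65-fold, adjusted p = 1.05e-08 in limma), and 1.24 was left at day 14. Ssr1, of the complex beside the channel, and Serp1, known for protecting membrane proteins under stress, took a like course, with highest means of 1.43 at day 7 and 1.51 at day 5. Sec61b, a small channel subunit, had 3 probe sets and its highest mean at day 3, at 0.66. Ssr3 did not exceed 0.39 on any day.

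The 7 degradation members, which recognise, move out and tag misfolded chains, were called in both directions after day 1. All 7 were called higher at day 1, 6 were higher and 1 lower at day 3, and 3 were higher and 1 lower at day 14. Over all genes 20.3% were higher and 34.7% lower at day 1, 24.2% and 23.4% at day 3, and 21.4% and 20.7% at day 14. Edem1, a lectin that marks misfolded glycoproteins, read 9.48 and 9.89 at day 0, 11.91 and 11.79 at day 1, 11.62 and 11.69 at day 3, 11.43 and 11.56 at day 5, 11.57 and 11.43 at day 7, 11.01 and 10.99 at day 10, and 10.77 and 10.62 at day 14. Every operated pool was above both day 0 pools. The rise was 2.17 ± 0.12 at day 1 (4.5-fold, limma adjusted p = 9.66e-08) and 1.01 at day 14.

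Herpud1, a membrane protein of the degradation complex, went the other way. It read 11.86 and 11.82 at day 0, 12.04 and 12.05 at day 1, 11.36 and 11.32 at day 3, 11.002 and 10.98 at day 5, 10.95 and 11.05 at day 7, 11.12 and 11.10 at day 10, and 11.25 and 11.28 at day 14. The day 1 pools were above day 0 and all later pools below it. The difference was 0.21 ± 0.06 at day 1 and -0.85 at day 5 (1.8-fold lower, limma adjusted p = 5.89e-07). At days 3, 7, 10 and 14 it was -0.50, -0.84, -0.73 and -0.57. The day 1 call ended without the left pool of day 0 (0.18, adjusted p = 0.082), without the right pool of day 1 (0.21, adjusted p = 0.0532) or without its left pool (0.20, adjusted p = 0.0722), and the falls from day 3 on were called under every setting.

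Derl3, of the derlin channel proteins, read 7.74 and 8.04 at day 0, 8.73 and 8.63 at day 1, 8.37 and 8.38 at day 3, 7.99 and 7.79 at day 5, 7.47 and 7.59 at day 7, 7.65 and 7.63 at day 10, and 7.75 and 7.46 at day 14. The day 0 pools were 0.30 apart, and the day 5 pools lay between them. The difference was 0.79 ± 0.12 at day 1, 0.49 at day 3 and -0.36 at day 7 (adjusted p = 0.022, limma), with none called at day 5, 10 or 14. Without the right pool of day 0 the day 3 value was 0.34 (adjusted p = 0.0591). The day 7 call ended without the left pool of day 0 (-0.21, adjusted p = 0.192) or without the right pool of day 7 (-0.30, adjusted p = 0.125). Derl2 and Syvn1, the ubiquitin ligase of this complex, rose at day 1 by 0.95 and 1.11 and were not called at day 14. Sel1l, its partner, and Derl1 stayed between 0.22 and 0.40 above day 0.

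Several small rises lost their call when particular single pools were left out. Sel1l was not called without the left pool of day 0 at day 5 (0.22, limma adjusted p = 0.0633), day 10 (0.18, adjusted p = 0.129) or day 14 (0.26, adjusted p = 0.0508). It was also lost without the left pool of day 5 (0.21, adjusted p = 0.0659), the right of day 10 (0.18, adjusted p = 0.146) and the left of day 14 (0.25, adjusted p = 0.0599). Derl1 was lost at days 5, 7 and 14 without either day 0 pool, where its values lay between 0.22 and 0.23. At day 1 Derl1 was lost without the left pool of day 0 (0.24, adjusted p = 0.0506) or the right of day 1 (0.16, adjusted p = 0.124). It was also lost without the left pool of day 5 (0.21, adjusted p = 0.0677), the right (0.23, adjusted p = 0.0552) or left (0.20, adjusted p = 0.0721) of day 7, and the left of day 14 (0.19, adjusted p = 0.143).

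Sec61b was lost without the left pool of day 0 at days 5, 7 and 10, at 0.23, 0.22 and 0.25 (limma adjusted p = 0.0745, 0.0902 and 0.0777). It was also lost without the left pool of day 5 (0.30, adjusted p = 0.0546) or of day 7 (0.28, adjusted p = 0.0589). It was called at day 1 without the right pool of day 0 (0.32, adjusted p = 0.0264). Ssr3 was lost at day 3 without the left pool of that day (0.23, adjusted p = 0.0644).

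**Figure D4:**
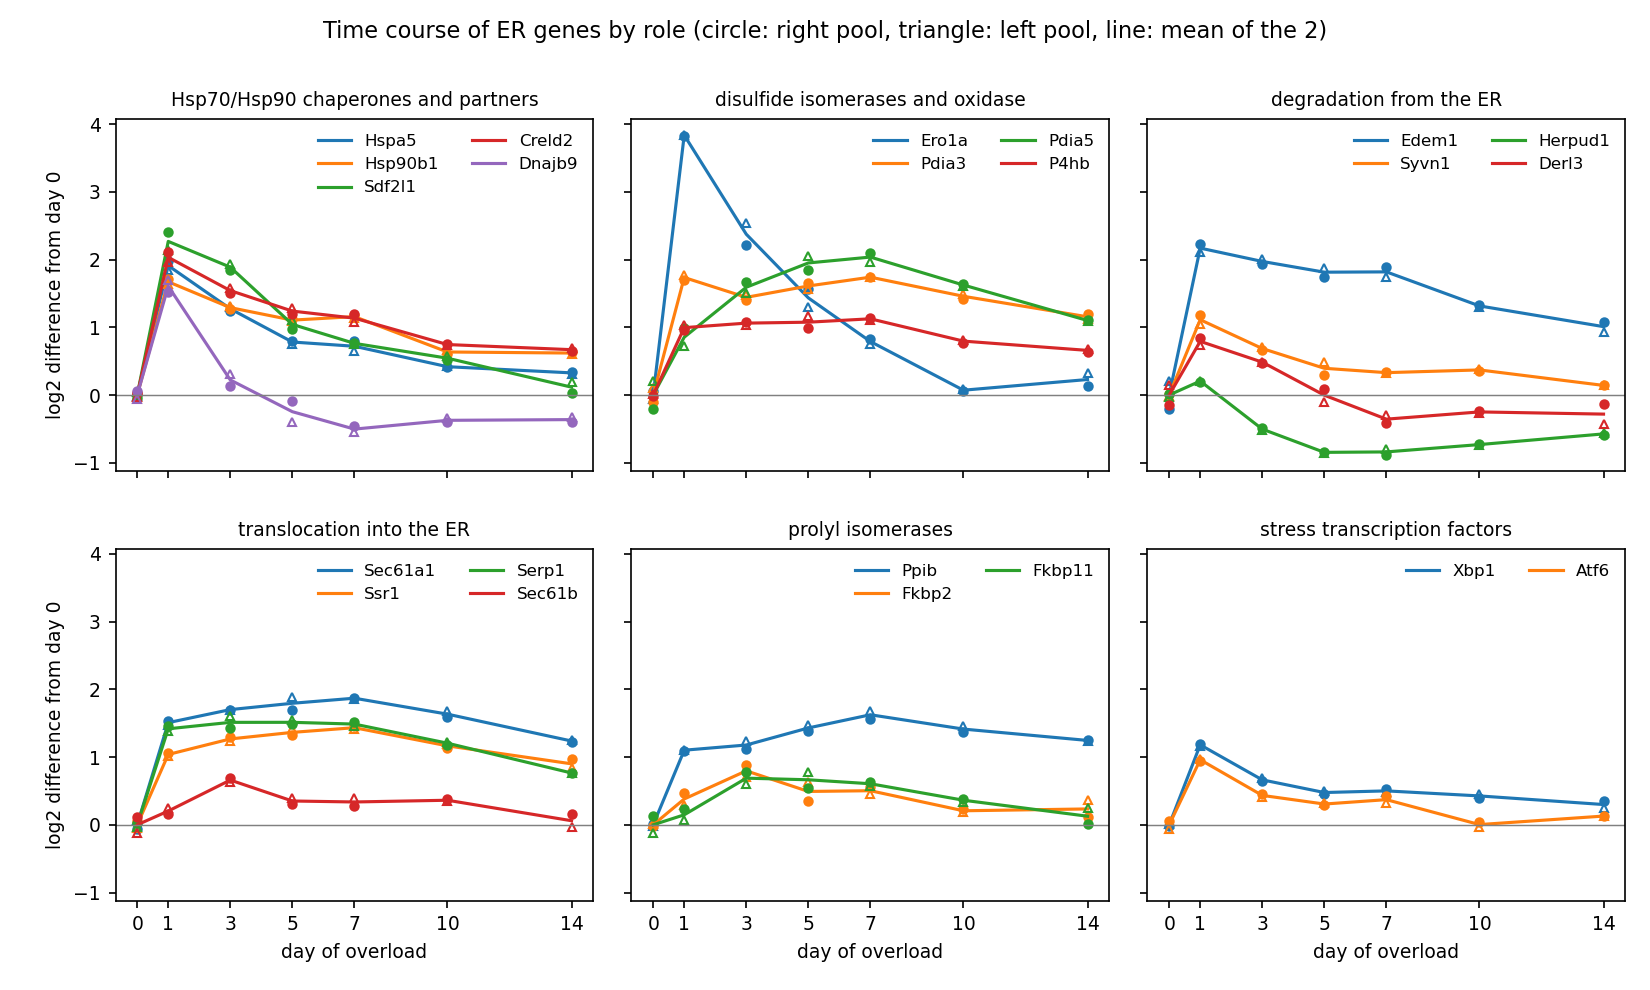
Difference of log2 intensity from the day 0 mean for 22 of the 35 genes in 6 role groups against day of overload, with circles for right pools, triangles for left pools and lines through the means of both. Ero1a falls from 3.84 at day 1 to 0.07 at day 10, while Pdia5, Ppib and Sec61a1 are highest at day 7.

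The day of the highest mean differed between members. It was day 1 for 20 members, day 3 for 6 (Calr, Canx, Fkbp2, Fkbp11, Derl1 and Sec61b), day 5 for Serp1 and day 7 for 8. The 8 were Pdia3, Pdia5, P4hb, Ppib, Sel1l, Sec61a1, Ssr1 and Ssr3. Some peaks were narrow, so the day of the highest mean is a description only. Serp1 was 1.5137 above day 0 at day 5 and 1.5131 at day 3. Pdia3 was 1.7404 above it at day 7 and 1.7352 at day 1. Steps between consecutive time points were tested, but day 7 was not tested against day 1 for these 8.

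From day 1 to day 3, 16 members were called lower and 6 higher, against 13.2% and 21.5% of all genes. Ero1a fell by 1.46 and Dnajb9 by 1.39, and the 6 that rose were Calr, Pdia5, Fkbp2, Fkbp11, Sec61b and Ssr1. Pdia5 rose by 0.74 (1.67-fold, limma adjusted p = 0.00169). The 6 rises became 3 without the left pool of day 1, and also 3 without the right pool of day 3. From day 3 to day 5, 9 members were called lower and Ppib alone higher, against 4.74% and 6.41% of all genes. Sdf2l1 fell 1.8-fold and Ero1a 1.92-fold. The Ppib call, at an adjusted p of 0.0495, ended when any 1 of the 14 pools was left out. The 9 falls became 3 without the right pool of day 3 and 4 without its left pool.

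Between days 5 and 7 only Ero1a was called, lower by 1.56-fold (limma adjusted p = 0.0266), against 0.487% of all genes lower and 0.667% higher. None was called higher, with 1 at an unadjusted p below 0.05. The Ero1a call ended without the right pool of day 5, without either pool of day 7 or without either pool of day 10. From day 7 to day 10, 17 members were called lower and 0 higher, with 0 higher also at an unadjusted p below 0.05 in limma, against 9.52% and 6.95% of all genes. Hsp90b1 and Ero1a fell by 1.44 and 1.65-fold. The 17 became 3 without the right pool of day 7, 7 without the right pool of day 10 and 6 without its left pool.

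From day 10 to day 14, Sdf2l1, Sec61a1 and Serp1 were called lower, against 2.56% of all genes, and none higher, with 1 at an unadjusted p below 0.05 in limma, against 2.11%. None of the 3 was called without either pool of day 10 or either pool of day 14, and 5 members were called lower without either pool of day 0. Across the longer span from day 3 to day 14, 31 of 35 were called lower, against 16.3% of all genes, and none higher, also at an unadjusted p below 0.05 in limma, against 17.6%. Ppib, Sel1l, Herpud1 and Derl1 were the 4 not called. Ero1a fell 4.42-fold and Sdf2l1 3.42-fold over that span.

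Another 124 ER genes came from lists of the same pathway. They were called higher in 72 and lower in 21 cases at day 1, 82 and 15 at day 3, 81 and 14 at day 5, 77 and 20 at day 7, 70 and 20 at day 10, and 55 and 16 at day 14. These are shares of 58.1% higher and 16.9% lower at day 1, 62.1% and 16.1% at day 7, and 44.4% and 12.9% at day 14. Over all genes the shares were 20.3% and 34.7% at day 1, 28.5% and 37.8% at day 7, and 21.4% and 20.7% at day 14, which are the background for the lists below. Their median difference was 0.35 at day 1, 0.46 at day 5 and 0.19 at day 14.

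Among 19 genes of the sensors and the PERK-ATF4 arm, 12 were called higher and 3 lower at day 1, and 10 higher and 6 lower at day 7. Atf3, a stress-induced transcription factor, was 3.21 ± 0.10 higher at day 1 and 0.85 higher at day 14. Asns, which makes asparagine and is a target of ATF4, was 2.48 ± 0.13 higher at day 1. Chac1, a glutathione-degrading enzyme also known as a target of the arm, was lower on all 6 days and by 2.15 at day 7, at -2.15 ± 0.12. Nfe2l1, an ER-anchored transcription factor, fell by 0.73 at day 7.

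Of 28 other chaperones, isomerases and oxidoreductases, 15 were higher and 6 lower at day 1, but 23 were higher and 0 lower at day 7. Rcn3 and Rcn1, calcium-binding proteins of the ER, were 2.78 ± 0.12 and 2.38 ± 0.10 higher at day 7, and Rcn3 was 0.13 at day 1, not called. Ppic, a cyclophilin, was lower by 0.41 at day 1, at -0.41 ± 0.08, and 1.99 higher at day 10. Sil1, a partner of Hspa5, was lower at day 1 (-0.49 ± 0.08) and not called on later days. Of 18 genes that add or trim sugars, 12 were called higher at day 1 and 15 at day 7, none lower on those days. Ostc and Uggt2 were the highest, at 1.54 and 1.44 at day 7, and Stt3b and Magt1 were 0.24 and 0.20 lower at day 10.

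Among 19 genes of signal recognition and the channel, 11 were higher and 4 lower at day 1. Tram2 and Tram1, known to help chains into the channel, were 1.68 and 1.31 higher at day 7. Sec61a2, the second form of the channel subunit, was lower by day 3 (-0.92 ± 0.08), and Srpr, part of the receptor for the signal recognition particle, also (-0.68 ± 0.08), while Sec61a1 was higher. Of 20 other degradation genes, 10 were higher and 5 lower at day 1, and 7 higher and 8 lower at day 7, near the all-gene shares of that day. Os9, a lectin, rose by 1.13 at day 7 and Ubxn4 by 1.11 at day 1, while Ngly1 at day 3 and Rnf139 at day 1 were each at -0.66 ± 0.08. Of 20 transport and retrieval genes, 12 were higher and 3 lower at day 1 and 13 and 3 at day 7. Kdelr3, which returns escaped ER proteins, rose the most of the 124 genes, at 3.55 ± 0.12 on day 7. Sec24d, a coat protein of vesicles leaving the ER, was 2.43 higher, and Sar1b, which starts that coat, was at -1.53 ± 0.10, all on day 7. Mia3, known for the export of large cargo such as collagen, was at -0.67 ± 0.08 on day 3.

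Markers of several cell types moved over the same days, and their part in the results was not tested. The all-gene shares to read the counts against were 20.3% higher and 34.7% lower at day 1, 24.2% and 23.4% at day 3, 28.5% and 37.8% at day 7, and 21.4% and 20.7% at day 14. Fibre markers of fast muscle were all measured, and their summed intensity was 156439 and 156972 at day 0 and between 87564 and 148591 in the operated pools. They were lower in 5 of 10 at day 1, in 10 of 10 at day 3 and in 2 of 10 at day 14, the largest fall being that of Tnni2, a fast troponin, at -1.49 on day 7. Macrophage markers were higher in 9 of 10 at day 1 and in 10 of 10 on every later day, and none was lower. Their summed intensity was 5576 and 4804 at day 0, 24587 and 26477 at day 1, 37954 and 37478 at day 3, and 17152 and 18311 at day 14. Ms4a7 rose most, by 4.39 at day 5. Neutrophil markers were higher in 9 of 9 at day 1, where Cxcr2 rose by 5.14, and in 0 of 9 at day 14. Their summed intensity was 15043 in the right and 30338 in the left pool of day 1. At day 0 it was 3454 in the right and 1940 in the left pool.

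Fibroblast markers, which include collagens, were higher in 2 and lower in 5 of 9 at day 1 and higher in 8 at day 7, when Col1a1 was 3.03 higher. Their summed intensity was 22287 and 20906 at day 0, 19768 and 18815 at day 1, 61093 and 61356 at day 7 and 61813 and 63564 at day 14. Satellite cell and myoblast markers were higher in 1 and lower in 5 of 10 at day 1 and higher in 9 at day 7, when Mymk, a fusion protein of myoblasts, was 3.69 higher. Endothelial markers were higher in 2 of 10, near the all-gene share, and lower in 5 at day 1 and higher in 8 at day 14. Plasma and B cell markers, of cells rich in ER, were higher in 1 and lower in 3 of 9 at day 1 (11.1% and 33.3%, the latter near the all-gene share), with a sum from 2024 to 2654 in all 14 pools.

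Hepatocyte markers, which muscle should lack, differed between pools of 1 day, with a sum of 47739 in the left and 13628 in the right pool of day 0, and 52971 in the right and 19295 in the left pool of day 1. None of the 8 was called at day 1 and 7 were called lower at day 7, with Ahsg at -3.07. With both of the high pools left out (left at day 0, right at day 1), the ER genes called higher at days 1, 3, 7 and 14 numbered 29, 33, 30 and 17. None was lower at day 1, and 2 were lower at days 10 and 14. No probe set of any list was at 0 on these arrays, whose lowest intensity was 5.9.

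**Figure D5:**
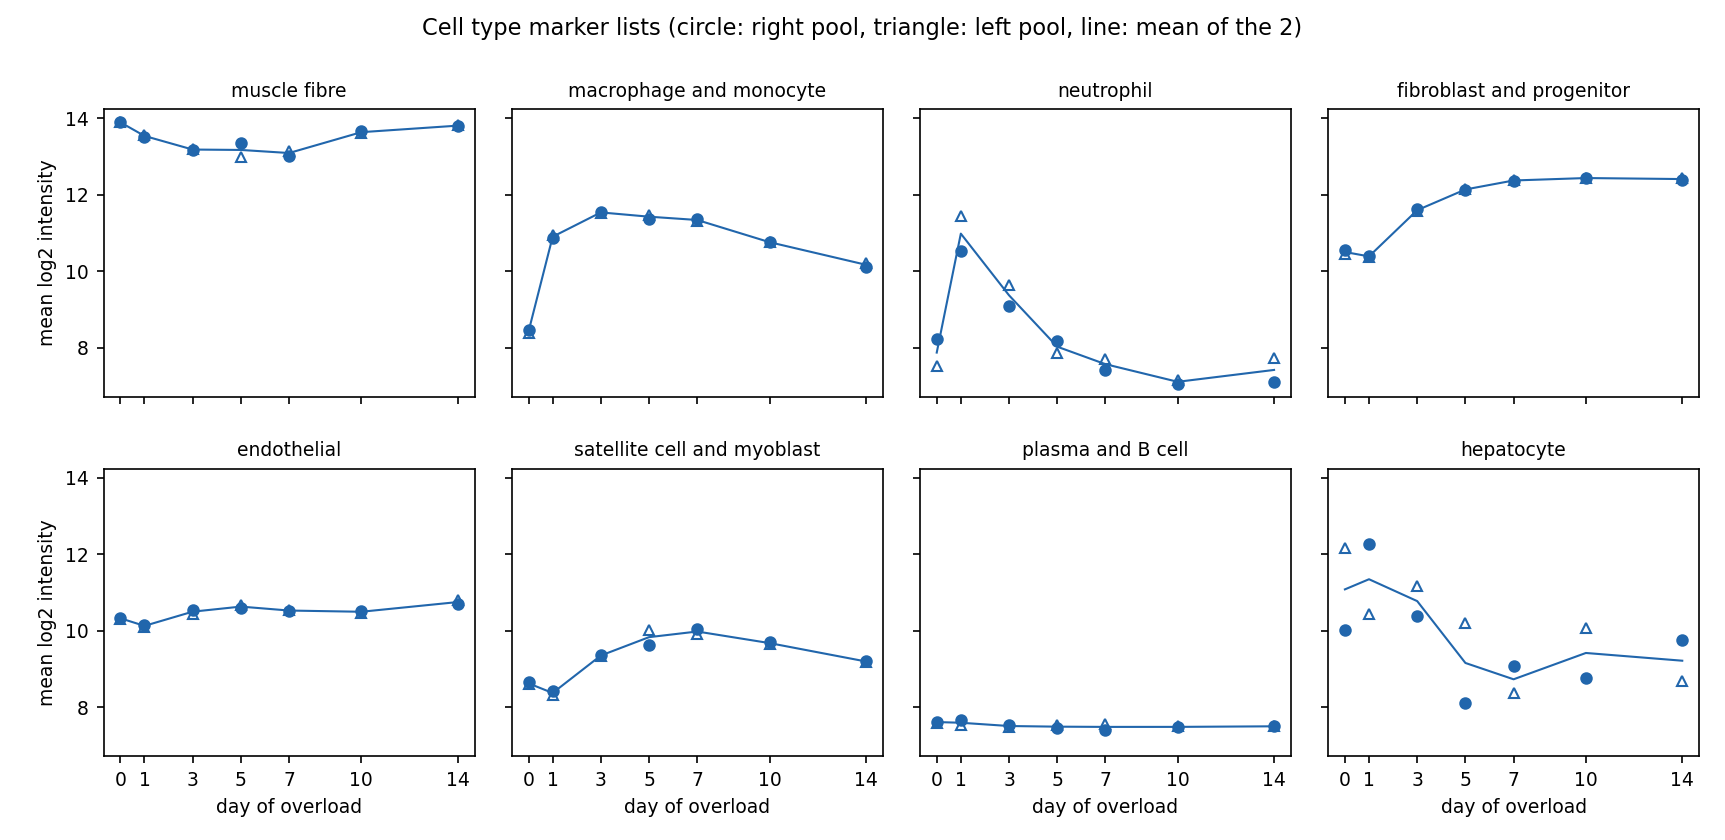
Mean log2 intensity of the measured genes of 8 cell type marker lists in each pool against day of overload, with circles for right pools, triangles for left pools and lines through the means of both. Macrophage markers are highest at day 3, fibroblast markers stay high to day 14, and hepatocyte markers differ between the right and left pools of a day.

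No intensity here compares 1 gene with another, since probes differ in brightness. The array number limits precision, with 2 pools a day and 7 residual degrees of freedom in the fit.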

How the data were processed

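The deposited values are linear intensity values, 1 per probe set, made by the authors with Partek software per the submitters' processing notes. The version, normalization and genome build were not given in the sources used here. The labels give both 100 and 250 ng of RNA. Array medians were 242.8 to 254.9. Of 35556 probe sets, 21789 had 1 symbol, 1621 several and 12146 none listed, and the brightest per gene was kept, leaving 19938 genes.

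Log2 intensity was fitted in limma 3.58.1 (R 4.3.3) with a mean for each day over all 14 arrays and 12 contrasts, two-sided, with Benjamini-Hochberg adjustment over all genes per contrast (threshold 0.05). Promoters were searched in Python 3.11.15.

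Members and lists were chosen with earlier results of these data known. Values in every pool are given for the largest rise and fall in each role group and comparison with day 0, for Hspa5, Xbp1, Atf6, and for members called in opposite directions; of other lists, at most 4 genes (largest changes). Alternatives were other scalings, filters, priors, probe set rules, blocks and left-out pools. By label, right pools of different days share only a side. Their deviations from the day means correlated between days from -0.58 to 0.44 (median -0.06). This does not show whether 1 set of animals gave both pools of a day.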

Additional observations from a re-analysis of the deposited data

Results flagged for a closer look

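Dnajb9, Herpud1 and Derl3 were called higher on some days and lower on others. The share of all genes with such opposite calls was not counted, so they cannot be said to be unusual. The limma contrast between such days is given as a description of its size, since the genes were picked for these opposite calls and the contrast is not independent of that choice. Dnajb9 was called higher on 1 day and lower on 3 days, and its day 7 minus day 1 difference was -2.11 ± 0.11 (adjusted p = 7.48e-08). Herpud1 was called higher on 1 day and lower on 5 days, with a day 3 minus day 1 difference of -0.71 ± 0.06 (adjusted p = 1.19e-05 in limma). Derl3 was called higher on 2 days and lower on 1 day, with a day 7 minus day 3 difference of -0.84 ± 0.12 (adjusted p = 0.000528 in limma).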

How the results depend on the processing

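Of 186 member results called against day 0, 162 were called under all 23 alternatives and 24 were lost under at least 1, and no called result changed sign. Of 24 results not called, 6 were called under at least 1 alternative. Sec61b at day 1, Ssr3 at day 10 and Derl2 at day 14 were then higher. Dnajb9 at day 5 (-0.30 under quantile normalization, -0.36 under equal medians) and Derl3 at days 10 and 14 (-0.35 and -0.37 under equal medians) were lower. Members higher at day 1 numbered 30 to 33 with 1 pool left out and 29 to 34 otherwise, and at day 14 they numbered 17 to 21 and 17 to 22. Equal array medians moved the all-gene median by -0.11, -0.12 and -0.13 at days 3, 5 and 7. Quantile normalization ended the calls of Syvn1 at day 7 (0.13), Sec61b at days 5, 7 and 10 (0.15, 0.12 and 0.21) and Hspa13 at days 10 and 14 (0.14 and 0.18). Equal medians ended those of Derl1 at days 5, 7 and 14 (0.11, 0.092 and 0.13), Sel1l at days 5 and 10 (0.14 and 0.12), Ssr3 at days 3 and 5 (0.15 in each), Sec61b at days 5 and 7 (0.23 and 0.21), and Hspa13 and Fkbp11 at day 10 (0.17 and 0.27). A fit on just the 4 arrays in question ended those of Herpud1 at day 1, Hyou1 at day 14, Sel1l at days 5 and 10, and Derl1 at days 1, 5, 7 and 14, at unchanged values. With 2 pools a day, small differences could not be settled.

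Counts that moved by over 1.5 times were these, the cause not being tested. Lower at day 5 against day 0 went from 1 to 2 under quantile normalization and under equal medians, and was 1 to 2 without a pool. Lower at days 10 and 14 went from 2 to between 1 and 2 without a pool. From day 1 to 3, higher was 6, and 3 under equal medians and 3 to 6 without a pool. From day 3 to 5, higher was 1, and 0 under equal medians, a robust prior, only the 4 arrays of these days, and without any pool. Lower was 9, and 14 with a trended prior, 4 with only 4 arrays and 3 to 11 without a pool. From day 5 to 7, lower was 1, and 0 with only 4 arrays and 0 to 1 without a pool. From day 7 to 10, lower was 17, and 3 to 18 without a pool. From day 10 to 14, lower was 3, and 5 under quantile normalization, 7 without the dimmest of 3 classes of genes, 6 with a trended prior, 6 with both pools high in hepatocyte markers left out (left at day 0, right at day 1), and 0 to 5 without a pool.

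Signs reversed only in results not called. Under quantile normalization these were Derl3 at day 5 (0.037), Dnajb11 (-0.0075), Ero1a (-0.056) and Atf6 (-0.018) at day 10, and Sdf2l1 (-0.026) and Sec61b (-0.078) at day 14. Under equal medians they were Dnajc3 (-0.020), Ero1a (-0.025) and Atf6 (-0.093) at day 10, and Sec61b (-0.030) and Ssr3 (-0.078) at day 14. With both of those pools left out they were Fkbp11 at day 1 (-0.061), Derl3 at day 5 (0.15), Atf6 at day 10 (-0.057) and Sec61b at day 14 (-0.057). With a single pool left out, Derl3 at day 5 ranged from -0.15 to 0.15, Dnajb11 from -0.0078 to 0.24 and Atf6 from -0.057 to 0.064 at day 10, and Sec61b from -0.057 to 0.18 and Ssr3 from -0.033 to 0.057 at day 14.

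With side as a replicate block, members called from day 3 to 5 went from 10 to 9, the 1 higher becoming 0, and from day 7 to 10 from 17 to 16, with the other member counts unchanged. All-gene calls at day 1 went from 10970 to 10760. Of the 7 days, 4 had a right pool that correlated above 0 on average with the other right pools.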
